A study of Mus musculus with 10 samples.

Results

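The genes described here encode the machinery that moves new secretory and membrane proteins into the endoplasmic reticulum (ER), folds them and carries them to and from the Golgi. Members were chosen by gene symbol, under a rule set with earlier results of these data known. They were the Sec61, Sec62 and Sec63 channel genes, Ssr1 to Ssr4, the signal peptidase genes (Sec11, Spcs), Pdia3 to Pdia6, P4hb, Calr, Canx, the COPII coat genes (Sec13, Sec16, Sec23, Sec24, Sec31), Sec22, the Tmed genes and the COPI coat genes (Copa, Copb, Cope, Copg, Copz). Of 17919 mouse genes with a value in every cell, 52 were members. The annotation held 55 protein-coding genes that fit the symbols, and Sec31b, Sec61g and Tmed1 had no probe set of their own.

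Proteins bound for secretion or for membranes are recognised as they leave the ribosome, threaded through the Sec61 channel and freed of their signal peptide by signal peptidase. In the ER lumen, disulfide isomerases of the PDI family and the lectins calreticulin and calnexin assist folding. COPII-coated vesicles then bud from ER exit sites towards the Golgi, and COPI-coated vesicles bring receptors and escaped ER proteins back. Bergmann glia are specialized astroglia whose soma lies beside the Purkinje neurons, and they need this route for their transporters, adhesion molecules and secreted proteins.

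Each of the 10 arrays (Affymetrix) carried amplified cDNA of 1 Bergmann glial cell, 5 from mice at postnatal day 30 (P30) and 5 from mice at postnatal day 6 (P6). All cells came from the mid-sagittal cerebellum of a GFAP-GFP reporter line, in which the Gfap promoter drives GFP, and were picked for strong fluorescence and for bushy processes on one side of the soma. The paper states that their cDNA was then screened by PCR and Southern blot. Samples were kept where the tested astroglial markers were present and the tested neuronal ones absent. No source used here names the animal of a cell. Each age was therefore taken as 1 sample, no p-value was computed, and each mean ± SD or range describes 5 cells, with a precision limited by the number of arrays.

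The deposited values are ratios, each relative to a central value of its own probe set. In 69.5% of complete probe sets the median of the P6 cells was exactly 1, so that a log2 ratio of 0 mostly marks the middle P6 cell. The ratios give no level, and no gene can be set against another by abundance. Differences are mean log2 ratios at P30 minus P6, and genes with several probe sets of their own were averaged over them. The median difference of all 17919 genes was -0.05. Centring each array on its median moved that median by 0.16, and centring on the hybridisation spikes moved it by -0.28.

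Since the ratios give no level, they cannot show whether a cell expressed the markers of the labelled cell type, and marker lists are given only by their differences. Of 13 astroglial markers, 12 had the higher mean at P30, with a median difference of 0.45, and their median in single cells lay between -0.37 and 0.63 at P30 and between -0.39 and 0.24 at P6. The highest median of the vascular and of the neuronal marker list was in P30 replicate 5. Those of the oligodendrocyte list were highest in P30 replicates 4 and 5. Of 7 oligodendrocyte markers, 6 had the higher mean at P30, with a median difference of 1.27. In each of these 2 cells 3 of the 7 lay more than 3-fold above 0, among them Cldn11 at 6.17 in P30 replicate 4 and 3.55 in P30 replicate 5. The median of the list was 0.98 and 0.86 in these cells, against -0.30 to 0.49 in the other P30 cells and -0.50 to 0.15 in the P6 cells. P30 replicate 5 was also high in vascular and neuronal markers. Of 8 endothelial and pericyte markers, 6 lay more than 3-fold above 0 in this cell and the lowest was at 1.05, and their median was 4.34, against -0.39 to 0.10 in the other P30 cells and -0.36 to 0.10 in the P6 cells. Its median over 12 neuronal markers was 1.17, against -0.86 to -0.31 in the other P30 cells and -0.63 to -0.10 in the P6 cells. Of the 12, 4 lay more than 3-fold above 0 in this cell and 2 more than 3-fold below. Single markers were also high in P6 replicate 5. There 3 of 12 neuronal markers lay more than 3-fold above 0 and 1 below. Of the 8 vascular markers 2 lay above, with Kdr at 5.94, and 2 below. Of the 7 oligodendrocyte markers 1 lay above, Mbp at 1.78, and 0 below. In P30 replicate 2 and P6 replicate 1 the 1 vascular marker above was Pdgfrb, at 6.21 and 5.77, with 0 and 2 below. For 1 oligodendrocyte marker, Cnp, all P30 cells lay above all P6 cells, which held for 1.41% of all genes. The part of these transcripts in the results was not tested. Without P30 replicate 5 the sign of the difference turned in Sec13 (0.33), Sec24c (0.0052), Copg2 (0.11) and Copa (-0.02), all genes with small differences over the 10 cells, and values without P30 replicates 4 or 5 are given below for the main results they move.

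The secretory genes leaned towards lower ratios at P30, with wide overlap between the cells of both ages. Of the 52 members, 37 (71.2%) had the lower mean at P30, against 52.4% of all genes. Their median difference was -0.41, which is -0.36 relative to all genes. A scaling of whole arrays shifts every gene alike and cannot change that relative value. It was -0.24 without P30 replicate 4, -0.21 without P30 replicates 4 and 5 together, -0.24 with medians over cells and between -0.54 and -0.24 with any 1 cell left out.

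Few members differed by over 3-fold, the fold limit of the study's methods, which also asked for a test across cells and a minimum of raw signal that were not applied here. Over 3-fold higher at P30 were Copz2 and Copb1, or 3.85% of members, where 4.93% of all genes were. Over 3-fold lower at P30 were Sec61b, Calr, Sec11a and P4hb, or 7.69% of members, where 9.39% of all genes were. Both shares were near the background of the table. With median scaling 3 members were over 3-fold higher and 3 over 3-fold lower at P30, and with spike scaling 2 were higher and 10 lower. Of the members past the limit, 1.58 on the log2 scale, P4hb at -1.73 was nearest to it, and the nearest that fell short of it were Tmed9 at -1.57, Pdia6 at -1.54, Spcs2 at 1.53 and Sec61a1 at -1.52.

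Overlap between the ages was nearly complete. In no member did all P30 cells lie above all P6 cells, which held for 1.41% of all genes, and in 1 member, Sec16b, all P30 cells lay below all P6 cells, which held for 2.13% of all genes. The plot of differences by role shows the members around this picture.

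**Figure D1:**
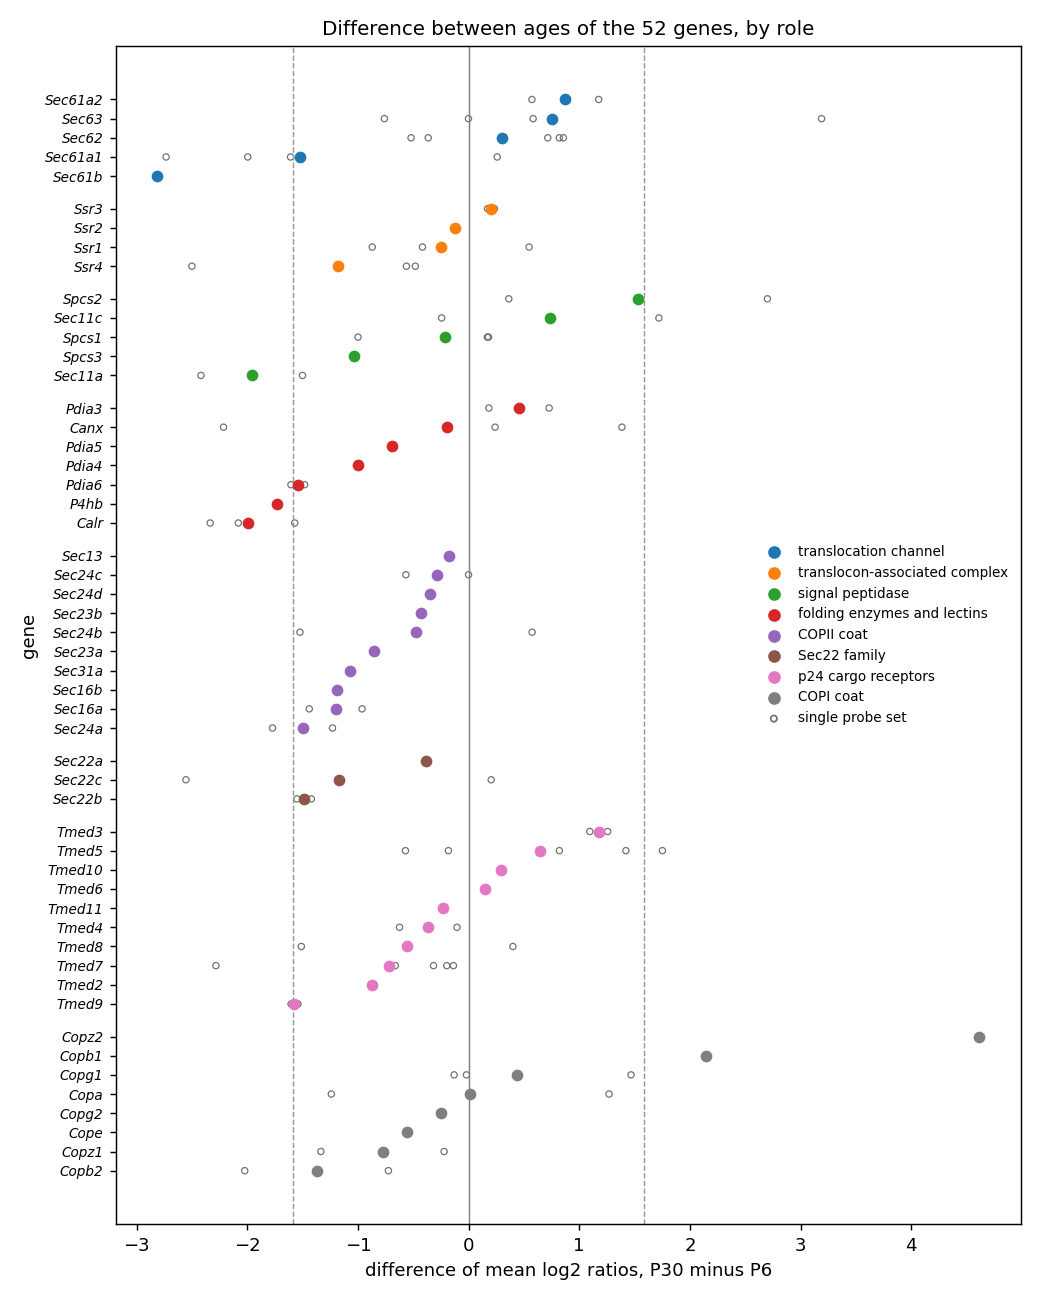
Difference of mean log2 ratios, P30 minus P6 (x axis), for each of the 52 genes (y axis), grouped and coloured by role, with open circles for the single probe sets of a gene and dashed lines at 3-fold. All 10 COPII coat genes lie left of 0, while Copz2 at 4.62 and Copb1 at 2.15 lie to the right of the 3-fold line.

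The translocation channel did not move as a unit. Of its 5 measured genes, Sec61b and Sec61a1 were lower at P30 and Sec61a2, Sec62 and Sec63 were higher. The median difference of the 5 was 0.30, with 0.46 under median scaling and 0.025 under spike scaling. When medians over cells were compared, 3 of the 5 were lower at P30, as Sec63 then turned to -1.20. Sec61b encodes the beta subunit of the channel. Its log2 ratios were -0.15, -2.28, -6.64, -4.88 and -1.13 in P30 replicates 1 to 5, against 0.00, 0.52, -0.71, 0.01 and -0.83 in P6 replicates 1 to 5. Of the P30 cells, 4 lay below every P6 cell and replicate 1 lay among them, and the value of -6.64 is the floor of the data. The means were -3.02 ± 2.69 at P30 and -0.20 ± 0.56 at P6 (SD, n = 5 cells each), a difference of -2.81 or a 7.03-fold lower geometric mean. Without P30 replicate 3, the cell at the floor, the difference was -1.91.

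A further probe set of Sec61b also matches the gene model Gm10320 and was therefore outside the rule. It read -2.82, -5.10, -5.57, -4.37 and -3.92 in P30 replicates 1 to 5, against 0.00, 1.38, -1.14, 0.63 and -0.68 in P6 replicates 1 to 5. All P30 cells lay below all P6 cells on it, and the difference was -4.39. Signal of the copies cannot be told apart on this probe set.

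Sec61a1, the pore-forming subunit, had -1.20 ± 1.07 at P30 and 0.32 ± 0.76 at P6. Its difference was -1.52, and 4 of its 5 probe sets were lower at P30, with a range of -2.73 to 0.26. Its paralogue Sec61a2 had 0.12 ± 0.66 at P30 and -0.75 ± 1.64 at P6, and the low P6 mean rested on replicate 1 at -3.65. Sec63, which recruits the lumenal chaperone BiP to the channel, was the most divided: its 4 probe sets ranged from -0.76 to 3.19. Its gene values were 2.48 and 2.17 in P30 replicates 1 and 5 and between -2.13 and -1.76 in the other P30 cells, against -1.88 to -0.21 in the P6 cells. Sec62, its partner in post-translational import, differed by 0.30.

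The translocon-associated complex, whose Ssr subunits sit beside the channel, differed little. Its 4 genes had a median difference of -0.18, and 3 of them were lower at P30. Ssr4 differed most, with -0.82, -2.93, -1.43, -3.23 and 1.04 in P30 replicates 1 to 5, against -0.76, -0.92, -1.03, 1.36 and -0.10 in P6 replicates 1 to 5. P30 replicates 2, 3 and 4 lay below every P6 cell and replicate 5 lay within their range, so that the ages overlapped. Its difference was -1.18, with -1.47 ± 1.73 at P30 and -0.29 ± 0.99 at P6, and its 3 probe sets were all lower at P30, at -2.50 to -0.48. Without P30 replicate 4 the difference was -0.74, without P6 replicate 4 it was -0.77, and without P30 replicate 5 it was -1.81. Ssr2 differed least, by -0.12.

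Signal peptidase held genes that pointed opposite ways. Sec11a, a catalytic subunit, had -2.58, -3.65, -1.76, -3.29 and -0.27 in P30 replicates 1 to 5, against 0.26, 1.12, -3.26, -0.29 and 0.39 in P6 replicates 1 to 5. P30 replicate 5 lay among the P6 cells and P6 replicate 3 lay among the P30 cells. The means were -2.31 ± 1.35 at P30 and -0.35 ± 1.70 at P6, a difference of -1.96 or 3.89-fold. Both probe sets were lower at P30, at -2.42 and -1.50, and the difference stayed past 3-fold whichever single cell was left out, at -1.59 or further from 0. The probe set at -2.42 was at the floor in P30 replicate 4. On the other probe set alone the difference was within 3-fold.

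The other catalytic subunit, Sec11c, had 0.84 ± 0.94 at P30 and 0.10 ± 0.19 at P6, a difference of 0.74, which was 0.44 without P30 replicate 5. Spcs2, an accessory subunit, had 1.83, 1.77, 1.49, 1.61 and -0.24 in P30 replicates 1 to 5, against 0.03, 0.10, -0.17, -0.23 and -0.93 in P6 replicates 1 to 5. The first 4 P30 cells lay above every P6 cell, and replicate 5, the cell with high vascular markers, lay within the P6 range. Without that cell the difference was 1.92, against 1.53 with it, and the ages no longer overlapped. Its probe sets read 0.36 and 2.70. Spcs3 differed by -1.04 and Spcs1 by -0.22. The median of the 5 genes was -0.22, and it was 0.17 without P6 replicate 1.

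Folding enzymes and lectins had the lower mean at P30 in 6 of 7 genes, with a median difference of -1.00. The lower mean held in 5 of 7 genes with the median of the probe sets of a gene, and 4 of 7 were lower when medians over cells were compared. The median difference was -0.84 with median scaling and -1.27 with spike scaling, and between -1.31 and -0.73 with any 1 cell left out. Calr, which encodes the lumenal lectin and calcium buffer calreticulin, had 1.62, 0.19, -5.17, -6.17 and 0.06 in P30 replicates 1 to 5, against -0.17, -1.44, 1.19, 0.94 and 0.00 in P6 replicates 1 to 5. P30 replicates 3 and 4 were far below all other cells, and the other 3 P30 cells lay at or above the middle of the P6 cells. The means were -1.89 ± 3.52 at P30 and 0.10 ± 1.04 at P6, a difference of -2.00 or 3.99-fold. The 3 probe sets of Calr all read lower at P30, at -2.34 to -1.57. On 2 of them P30 replicate 4 was at the floor, and with a floor of 0.1 the difference was -1.06. The difference was -1.18 without P30 replicate 3 and -0.93 without P30 replicate 4, and the medians over cells differed by 0.055 in the opposite direction.

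P4hb, which encodes protein disulfide isomerase itself, had -0.78, -6.30, 0.25, -1.55 and -1.96 in P30 replicates 1 to 5, against 0.10, -0.92, 0.00, 0.17 and -1.04 in P6 replicates 1 to 5. P30 replicates 2, 4 and 5 lay below every P6 cell, and P30 replicate 3 lay above every one. The means were -2.07 ± 2.51 at P30 and -0.34 ± 0.59 at P6, a difference of -1.73 or 3.31-fold, which was -0.67 without P30 replicate 2. With median scaling it was -1.57, within 3-fold. P4hb rested on 1 probe set.

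Pdia6, another disulfide isomerase of the ER, was more even. It had -2.08 ± 1.17 at P30 and -0.54 ± 0.88 at P6, and its probe sets differed by -1.61 and -1.48. Pdia4 differed by -1.00 and Pdia5 by -0.69. Pdia3, the isomerase that works with calnexin and calreticulin, was the member of the group with the higher mean at P30, by 0.46. Canx, which encodes calnexin, the membrane-bound partner of calreticulin, differed by -0.20 as a gene, but its 3 probe sets read -2.21, 0.24 and 1.39.

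Genes of this group are textbook targets of the unfolded protein response, whose factors ATF6 and XBP1 bind the ER stress response element. The promoters of the members, from 250 bases before to 50 bases after each start site in RefSeq (build GRCm38.p6), were therefore searched on both strands for that element, spelled CCAAT, 9 bases of any kind and CCACG. It was present in 3 of 48 promoters (6.25%), from 45 members that had an entry, and in 39 of 32851 promoters of all genes (0.119%). The 3 were those of Calr, Canx and Pdia6, shown here because they share this element while the differences of their genes ran from -2.00 to -0.20. Capitals mark the element with 20 bases on either side. In Calr it lies on the opposite strand, 162 to 144 bases before the start site, in Canx 145 to 127 bases and in Pdia6 98 to 80 bases before it. The stretches are chr8:84847055-84847113 on the minus strand, chr11:50325780-50325838 on the minus strand and chr12:17266471-17266529 on the plus strand.
Calr: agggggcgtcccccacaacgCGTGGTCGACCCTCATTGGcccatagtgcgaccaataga
Canx: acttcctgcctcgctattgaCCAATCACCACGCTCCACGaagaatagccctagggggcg
Pdia6: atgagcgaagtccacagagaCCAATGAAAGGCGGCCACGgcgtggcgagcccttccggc

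The COPII coat was lower at P30 in all 10 measured genes, against 52.4% of all genes, with differences from -1.50 to -0.17 and a median of -0.67. No gene passed 3-fold. All 10 means stayed lower at P30 under median scaling and spike scaling, 7 stayed lower without P30 replicate 1, 8 without P30 replicate 5 and 9 without P30 replicate 2, and 6 were lower when medians over cells or arithmetic mean ratios were compared. The median in single cells was -0.70, 0.18, 0.13, -1.17 and -0.44 in P30 replicates 1 to 5, against 0.12, 0.09, 0.29, -0.08 and 0.00 in P6 replicates 1 to 5. P30 replicates 1, 4 and 5 were thus low, and replicates 2 and 3 lay among the P6 cells.

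Sec16b encodes a scaffold of ER exit sites. It read -0.39, -1.26, -0.59, -3.20 and -0.52 in P30 replicates 1 to 5, against -0.13, 0.24, 0.02, -0.16 and 0.00 in P6 replicates 1 to 5. Every P30 cell lay below every P6 cell, though the gap between -0.39 and -0.16 was narrow, and the ages overlapped under both median scaling and spike scaling. The means were -1.19 ± 1.17 at P30 and -0.01 ± 0.16 at P6, a difference of -1.19, which was -0.69 without P30 replicate 4. The ages stayed apart whichever single cell was left out.

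Sec24a, which encodes a cargo-binding subunit of the inner coat, differed most, with 1.19, 0.04, -2.29, -1.19 and -0.43 in P30 replicates 1 to 5, against 1.09, 2.02, 0.81, -0.01 and 0.92 in P6 replicates 1 to 5. P30 replicates 3, 4 and 5 lay below every P6 cell and P30 replicate 1 lay above 4 of them. The difference was -1.50, with -0.53 ± 1.31 at P30 and 0.97 ± 0.73 at P6. Its paralogues Sec24b, Sec24c and Sec24d differed by -0.47, -0.28 and -0.35.

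Of the other COPII genes, Sec16a, the larger exit site scaffold, differed by -1.20 and varied most, with an SD of 3.90 at P30 and 2.80 at P6. P30 replicates 1 and 4 were at -6.33 and -5.99 and P30 replicates 2 and 3 at 1.79 and 1.43, while P6 replicate 3 was at -5.86. Sec31a of the outer coat differed by -1.07, and its partner Sec13 by -0.17, the smallest difference of the group. Sec23a and Sec23b, which activate the GTPase Sar1, differed by -0.86 and -0.43.

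A second element of the unfolded protein response, the core TGACGTGG bound by XBP1 and ATF6, was searched on both strands of the same promoters. It was present in 5 of 48 promoters of members (10.4%) and in 222 of 32851 promoters (0.676%), and it overlapped no match of the first element. The 5 belonged to Sec16b, Sec24d, Sec23a, Copb1 and Copb2, all coat genes. Those of Sec16b and Copb1 are shown because their genes differed in opposite directions, by -1.19 and 2.15. Capitals mark the core, which lies 44 to 37 bases before the start site of Sec16b, at chr1:157506732-157506779 on the plus strand, and 28 to 21 bases before that of Copb1 on the opposite strand, at chr7:114254681-114254728 on the minus strand.
Sec16b: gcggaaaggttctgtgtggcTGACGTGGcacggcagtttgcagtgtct
Copb1: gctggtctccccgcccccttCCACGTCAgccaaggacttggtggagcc

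The Sec22 family holds SNARE proteins and relatives of the route between ER and Golgi. All 3 genes were lower at P30, and 2 of 3 when medians over cells were compared, with a median difference of -1.17. Sec22b, the SNARE of this step, had -1.11, 0.92, -1.82, -2.29 and -2.66 in P30 replicates 1 to 5, against -0.04, 0.79, -0.32, 0.00 and 0.04 in P6 replicates 1 to 5. P30 replicate 2 lay above every P6 cell and the other 4 P30 cells lay below every one. The difference was -1.49, with -1.39 ± 1.42 at P30 and 0.09 ± 0.41 at P6, and the probe sets read -1.55 and -1.42. It was -0.76 without P30 replicates 4 and 5 together. Sec22c differed by -1.17, on probe sets at -2.55 and 0.20, and Sec22a by -0.38.

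The p24 cargo receptors, encoded by the Tmed genes, cycle between ER and Golgi and help load vesicles. Of 10 measured genes, 6 were lower at P30, and the median difference was -0.30. Tmed9 differed most, with 0.01, -2.00, -3.07, -1.83 and -0.47 in P30 replicates 1 to 5, against 0.99, -0.60, 0.00, 0.73 and -0.62 in P6 replicates 1 to 5. P30 replicates 2, 3 and 4 lay below every P6 cell and P30 replicates 1 and 5 lay among the P6 cells. The means were -1.47 ± 1.24 at P30 and 0.10 ± 0.74 at P6, and its probe sets differed by -1.60 and -1.54.

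Tmed7 was lower at P30 on all 5 of its probe sets, at -2.28 to -0.14, with a difference of -0.72. Tmed2 differed by -0.87 on its own probe set. On the probe sets that also match the gene model Gm10698 the difference ranged from -0.96 to 0.42. Tmed3 had the largest difference in the other direction, 1.18, and its low P6 mean of -1.09 ± 2.91 rested on P6 replicate 3 at -6.16. Tmed10 differed by 0.29 on its own probe set and by 0.31 to 0.93 on those shared with its pseudogene. Tmed6 differed least, by 0.15.

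The COPI coat held both members that were over 3-fold higher at P30, while its 8 genes were divided, 4 lower and 4 higher. Their median difference was -0.12 as deposited, 0.04 with median scaling, 0.19 without P30 replicate 4, 0.05 without P30 replicate 5 and 0.51 without both. Copz2 encodes the second form of the zeta subunit. It had 6.21, 1.09, 5.88, 6.86 and 5.34 in P30 replicates 1 to 5, against 0.72, -0.92, -2.08, 0.00 and 4.59 in P6 replicates 1 to 5. P30 replicates 1, 3, 4 and 5 lay above every P6 cell, P30 replicate 2 lay above 4 of the 5, and P6 replicate 5 lay between P30 replicates 2 and 5. The means were 5.08 ± 2.29 at P30 and 0.46 ± 2.54 at P6, a difference of 4.62 or a 24.5-fold higher geometric mean on a single probe set. It was between 3.98 and 5.65 with any 1 cell left out, and 3.41 as a log2 ratio of arithmetic means.

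Its paralogue Copz1 went the other way, with -0.63 ± 1.08 at P30 and 0.15 ± 0.33 at P6, and both probe sets lower at P30, at -1.34 and -0.22. The difference of Copz1 was -0.78. P30 replicates 2, 4 and 5 lay below every P6 cell for Copz1, and P30 replicate 3 lay above every one.

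Copb1, which encodes the beta subunit, spread over a wide range at both ages. It had 0.91, 4.15, -1.81, -5.21 and 0.77 in P30 replicates 1 to 5, against 1.27, 0.00, -2.82, -4.92 and -5.44 in P6 replicates 1 to 5. Each age held cells near 1 and cells near -5, and P30 replicate 2 alone lay above every P6 cell. The means were -0.24 ± 3.49 at P30 and -2.38 ± 2.96 at P6, a difference of 2.15 or 4.43-fold, on a single probe set. It was 1.05 without P30 replicate 2, 1.51 without P6 replicate 4 and 1.38 without P6 replicate 5, each within 3-fold, and 3.39 without P30 replicate 4.

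The beta-prime subunit gene Copb2 had -1.46 ± 1.76 at P30 and -0.09 ± 0.33 at P6. Its 2 probe sets were lower at P30, at -2.02 and -0.72, and 4 P30 cells lay below every P6 cell. The gene difference was -1.37, and -0.77 without P30 replicate 4. Cope, the epsilon subunit gene, differed by -0.55, and Copg1 and Copg2 of the gamma subunit by 0.44 and -0.25. Copa, the alpha subunit gene, differed least, by 0.01, on probe sets at -1.24 and 1.27.

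**Figure D2:**
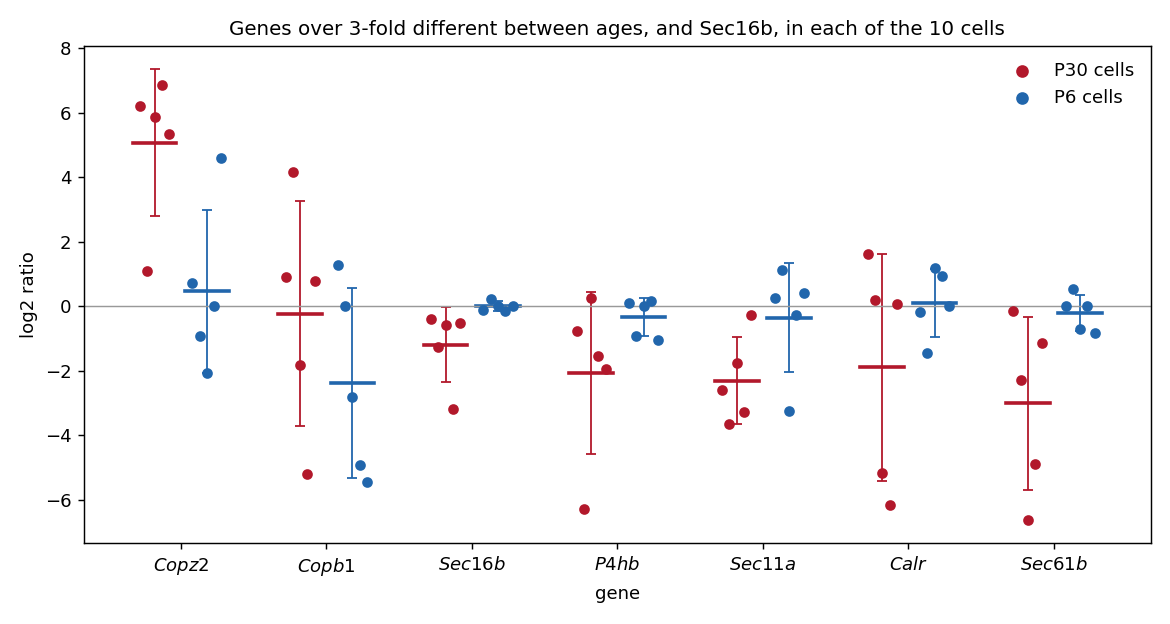
Log2 ratio (y axis) in each cell for the 6 genes over 3-fold different between ages and for Sec16b (x axis), with P30 cells in red on the left and P6 cells in blue on the right of each gene. Horizontal bars are means and error bars the SD over 5 cells, and Sec16b is the gene whose cells do not overlap.

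Cells at P30 differed more from one another than cells at P6 in most members. The SD was larger at P30 in 35 of 52 members (67.3%), against 54.7% of all genes, and the median SD of the members was 1.20 at P30 and 0.83 at P6, beside 0.97 at P30 and 0.92 at P6 for all genes. In the COPII coat the SD was larger at P30 in 10 of 10 genes, in the COPI coat in 7 of 8, with Copz2 as the exception, and in the p24 receptors in 3 of 10. The widest spread at P30 was that of Sec16a at 3.90, Calr at 3.52, Copb1 at 3.49 and Sec23a at 3.03, and in all 4 the lowest P30 cell lay below -5. The floor was met by 7 of the members' P30 values and 2 of their P6 values on single probe sets, out of 1040 in all.

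**Figure D3:**
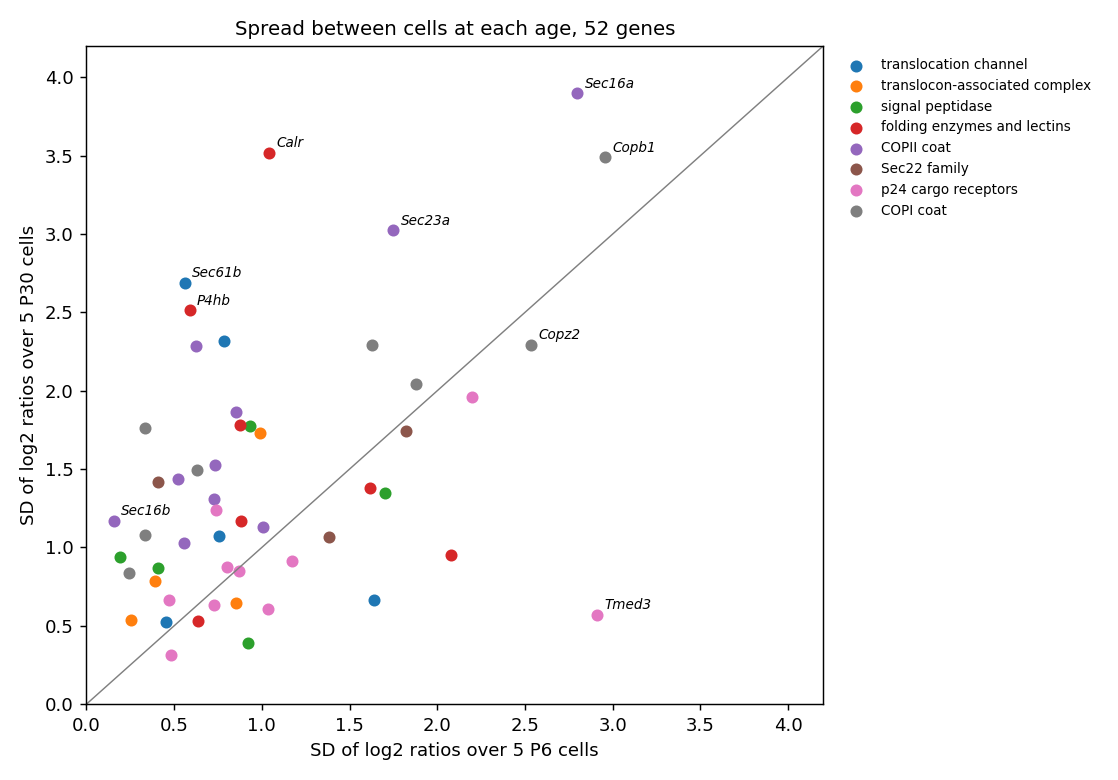
SD of log2 ratios over 5 P30 cells (y axis) against that over 5 P6 cells (x axis) for the 52 genes, coloured by role, with the line of equal spread. The 10 COPII coat genes all lie above the line, and Tmed3 at the lower right has its spread from 1 P6 cell.

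P30 replicate 4 was the cell in which the secretory genes stood lowest. The median over members was -0.14, -0.22, -0.30, -1.17 and -0.47 in P30 replicates 1 to 5, beside -0.18, -0.19, -0.18, -0.28 and -0.49 for all genes in the same cells. At P6 it was 0.00, 0.12, -0.06, -0.01 and -0.11 in replicates 1 to 5. In P30 replicate 4, 20 of 52 members (38.5%) lay more than 3-fold below 0, against 24.5% of all genes. That cell was the lowest of the 10 cells in 10 of the 52 members, against 11.9% of all genes. The low members came from several roles, with role medians of -2.29 for Sec22, -1.78 for the channel, -1.72 for COPI, -1.55 for folding and -1.17 for COPII, whereas signal peptidase was at 0.31. In this cell 3 of 7 oligodendrocyte markers lay more than 3-fold above 0, as given above, and their part in its low members was not tested. In P30 replicate 5, with its high vascular markers, the median of the members was close to that of all genes.

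**Figure D4:**
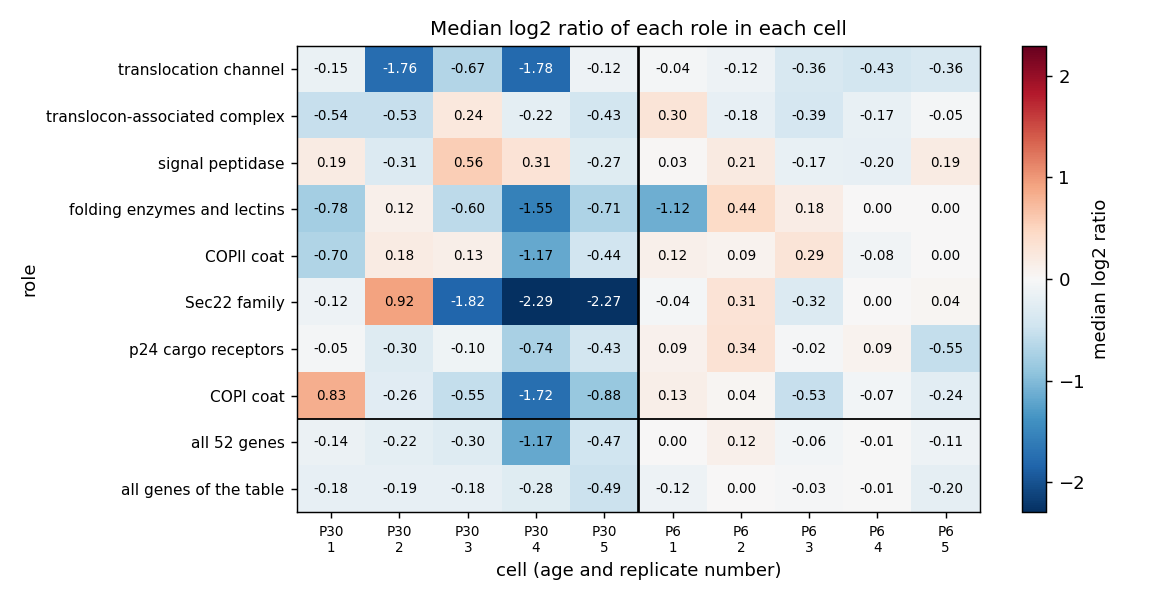
Median log2 ratio of the genes of each role (rows) in each cell (columns, P30 cells on the left and P6 cells on the right of the black line), with the median of all 52 and of all genes in the bottom rows in blue below 0 and red above it. P30 replicate 4 is blue in most rows and its median over the 52 genes is -1.17, against -0.28 over all genes.

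Probe sets of 1 gene often disagreed. Of 31 members with more than 1 probe set, 13 had all of them lower at P30, 5 had all of them higher and 13 had both directions. Among the 104 probe sets of members, 6 were over 3-fold higher at P30 (5.77%, where 6.91% of all probe sets with 1 gene were) and 16 over 3-fold lower (15.4%, where 12.3% were). Cells of the ages were apart on 2 of them (1.92%), both lower at P30, where 1.96% of all probe sets with 1 gene were apart in that direction and 1.21% in the other. The 2 were the single probe set of Sec16b and 1 of 3 of Ssr4, at -2.50.

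Around the members, 132 of 143 listed genes of the same pathways were measured. Over 3-fold higher at P30 were 9 of them (6.82%, where 4.93% of all genes were) and over 3-fold lower were 15 (11.4%, where 9.39% were), with a median difference of -0.21. In 3 genes (2.27%), Srp9, Stt3a and Bnip1, all P30 cells lay below all P6 cells, near the 2.13% of all genes.

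The signal recognition particle, which brings ribosomes to the channel, and its receptor were lower at P30 in all 8 measured genes, with a median difference of -1.35. The median was -1.19 with median scaling, -1.62 with spike scaling, between -1.63 and -0.90 with any 1 cell left out and -0.69 without P30 replicates 4 and 5. Srp9 had -2.63, -3.79, -5.59, -3.99 and -1.58 in P30 replicates 1 to 5, against 0.49, 0.60, -1.32, -0.49 and -0.50 in P6 replicates 1 to 5. The highest P30 cell was thus below the lowest P6 cell, and the difference was -3.27. Srp68 differed by -2.44 and Srp72 by -1.75, both with overlapping ages. Srp68 rested on 1 probe set, and 2 P30 values and 1 P6 value of Srp72 were at the floor. Srp14, which forms a heterodimer with Srp9, differed by -0.01, with 0.06 ± 0.26 at P30 and 0.07 ± 0.33 at P6 over 4 probe sets, and was named after its value was seen.

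Oligosaccharyltransferase, which glycosylates chains as they enter the ER, was higher at P30 in 8 of 12 genes, with a median difference of 0.26 that became -0.01 with spike scaling. Its catalytic subunit gene Stt3a differed most, with -4.11, -2.98, -2.30, -4.93 and -4.60 in P30 replicates 1 to 5, against -1.76, 0.78, -1.12, -1.19 and -0.71 in P6 replicates 1 to 5. All P30 cells lay below all P6 cells, and the difference was -2.99 over 4 probe sets, on which 4 P30 values and 2 P6 values were at the floor.

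The ER membrane complex, tail-anchor insertion factors and neighbours of the channel had a median difference of -0.44 over 18 genes. Ckap4, a rough ER membrane protein, differed by -2.84, and the membrane complex genes Emc9 by 2.75 and Emc8 by -2.34. At the floor were 6 P30 values and 1 P6 value of Ckap4, and 2 P30 values and 1 P6 value of Emc8. Emc9 rested on 1 probe set, with an SD of 4.25 at P6. The lumenal chaperones and co-chaperones had a median of -0.06, which was 0.10 with median scaling. Dnajb9, a co-chaperone of BiP, differed by 1.81 and was the gene of this list past 3-fold. Other lectins and redox enzymes had a median of -0.17 over 14 genes. Txndc5, a PDI-family protein, differed by 2.56, Mogs, the glucosidase that starts glycan trimming, by -2.18, and Erp44, which retains clients in the early secretory route, by -1.91. Dnajb9 and Mogs rested on 1 probe set each, and 2 P30 values of Erp44 were at the floor.

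Genes of ER-associated degradation had a median difference of 0.10 over 15 genes, which was -0.17 with spike scaling. The lectin gene Os9 differed by 2.08, Nploc4, an adaptor of the ATPase that extracts clients, by -1.92, and Edem1, which acts in the mannose trimming of misfolded proteins, by -1.65. Nploc4 rested on 1 probe set, with 1 P30 value at the floor and an SD of 3.75 at P30. Sensors and factors of the unfolded protein response had a median of -0.11 over 15 genes, which was 0.04 with median scaling. Xbp1 was the gene of this list past 3-fold, at 2.27, with cells from -3.39 to 2.57 at P30 and from -5.81 to 3.26 at P6, so that every P30 cell lay within the P6 range. On its probe sets 1 P30 value and 4 P6 values were at the floor.

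Partners of the COPII coat had a median of -0.43 over 13 genes, which was -0.16 without P30 replicate 5 and 0.18 without P30 replicates 4 and 5. Preb, which loads Sar1 with GTP, differed by -2.61, and Trappc2 and Trappc4 of the TRAPP tethering complex by 2.62 and -2.04. At the floor were 2 P30 values and 1 P6 value of Preb. Trappc2 rested on 1 probe set, with an SD of 2.83 at P30. Partners of the COPI coat had a median of -0.59 over 9 genes. Arf5, a GTPase of the family that recruits COPI, differed by -3.73, and Arfgap3, which ends the cycle of these GTPases, by 2.34. Each rested on 1 probe set, with 1 P30 value of Arf5 and 1 P6 value of Arfgap3 at the floor. The remaining cargo receptors and SNAREs had a median of -0.21 over 18 genes, which was 0.22 without P30 replicates 4 and 5.

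In that last list, Bnip1, a SNARE gene of the return route to the ER, had -3.79, -3.24, -4.10, -2.74 and -3.66 in P30 replicates 1 to 5, against 0.00, 0.16, -0.42, 0.52 and -0.73 in P6 replicates 1 to 5. All P30 cells lay below all P6 cells, and the difference was -3.41 with an SD of 0.53 at P30 and 0.49 at P6. Bnip1 rested on 1 probe set. Lman2, a cargo lectin, differed by 3.09, with 2.67 to 4.24 at P30 and -2.08 to 2.95 at P6. Kdelr2, a receptor that returns ER proteins, differed by -1.70.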

How the data were processed

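Single-cell cDNA was hybridised to 1 array per cell. According to the paper and labels, the authors processed the scans with RMA in GeneSpring, set values under 0.01 to 0.01, scaled every array to its own 50th percentile and then every probe set to its median over all samples. What the authors deposited are linear ratios. Their text and the values differ on the last step, since the median over all cells was 1 in 1.66% of complete probe sets and that of the P6 cells in 69.5%. Further, the genome build of the probe design is not given in the sources used here. Of 45101 probe sets, 43608 with a value in every cell were kept and 1493 were left out, 4 of them of members. Probe sets with 1 gene numbered 34958, with several 932 and with none 9211, named through the platform annotation and RefSeq GRCm38.p6, and 12 probe sets matched to a member and other genes stayed outside the gene values. Values of 0, of which the complete probe sets held 10, were set to 0.01. Ratios were taken to log2 and averaged per gene.

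Ages were compared over all genes by the difference of means, with the fold limit of 3 of the methods, without their test across cells and their filter on raw signal, and by overlap of the cells. No test was run, since each age is 1 sample. Members, lists and rules were chosen with earlier results of these data known. Values in every cell are given for members over 3-fold, members whose ages did not overlap and the member of each role with the largest difference, and from each pathway list up to 3 genes over 3-fold are named. Members described in other detail and Srp14 were chosen after their values were seen. Alternatives were other scalings, floors, probe set choices, summaries over cells and a fold of 2, and each cell left out. Medians of roles and lists under these settings, and the removal of P30 replicates 4 and 5 together, were added after seeing the data. The steps were tested on simulated data. Python 3.11.15, NumPy 2.4.6, pandas 2.3.3 and Matplotlib 3.10.9 were used.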

Additional observations from a re-analysis of the deposited data

Results flagged for a closer look

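In 10 of 104 groups of 5 cells (52 genes at 2 ages), 1 cell lay so far from the other 4 that its gap to the nearest of them took more than 0.71 of the group's range (Dixon's critical value). Chance flags about 1 in 20 such groups when values are normally distributed, which was not checked here. The share flagged over all genes was not computed, so the count cannot be read as an excess. At P30 the cells were P30 replicate 5 for Spcs1 (log2 ratio -0.60, others 0.19 to 0.34) and for Spcs2 (-0.24, others 1.49 to 1.83). P30 replicate 4 was far from the others for Pdia5 (-2.64, others -0.64 to -0.31). P30 replicate 1 was the distant cell for Sec23a (-6.07, others -0.05 to 1.23) and for Copg2 (2.22, others -2.84 to -1.88), and P30 replicate 2 for Copz2 (1.09, others 5.34 to 6.86). At P6 the cells were P6 replicate 1 for Sec61a2 (-3.65, others -0.36 to 0.33) and for Sec62 (0.54, others -0.51 to -0.36). P6 replicate 3 was the distant cell for Sec16a (-5.86, others -0.50 to 0.81) and for Tmed3 (-6.16, others -0.53 to 0.89).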

How the results depend on the processing

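The median difference of the members kept its sign in every setting, at -0.41 as deposited. The count of members over 3-fold higher at P30 was 2. It was 4 with arithmetic mean ratios and 4 with a fold of 2, and between 1 and 4 with 1 cell left out. The count over 3-fold lower at P30 was 4. It was 10 with spike scaling, 2 with a floor of 0.1, 1 without probe sets at the floor (51 members, as Sec61b then had no value), 9 with medians over cells, 1 with arithmetic mean ratios and 16 with a fold of 2, and between 3 and 9 with 1 cell left out. The cause of these moves was not tested. With all genes, 34.4% of those past 3-fold were higher at P30 as deposited, 43.3% with median scaling and 20.6% with spike scaling. Members with all P30 cells above all P6 cells numbered 0 as deposited, 1 (Spcs2) with median scaling, 1 (Spcs2) with spike scaling, 2 (Spcs2 and Tmed10) without P30 replicates 4 and 5, and between 0 and 1 with 1 cell left out (Spcs2 or Copz2). Members with all P30 cells below all P6 cells numbered 1 as deposited, 0 with median scaling, 1 with spike scaling (Cope, and no longer Sec16b), and between 1 and 3 with 1 cell left out. Leaving out a cell can keep or raise these counts of members apart but cannot lower them. Calr had a difference of 0.055 with medians over cells, against -2.00 as deposited. Of 987 values of single members under the settings, 986 moved by less than the spread between cells. The other was that of Sec63 with medians over cells, at -1.20 against 0.75 as deposited. That spread is the pooled SD of single cells, and leaving out 1 cell cannot move a mean of 5 cells so far. The count of 986 is therefore no measure of stability. Besides Calr and Sec63, further members changed sign under some setting. Among them were Sec16a (up to 0.32), Sec23a (up to 0.47), Sec23b (up to 0.48) and Tmed3 (down to -0.09). No paired analysis was possible because the values come from no test and the numbers of the cells pair no animals. With 1 array per cell, and signal over background not used here, values at the floor limit how far a low ratio can be read.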

Other observations

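Of the 4 probe sets of members left out for a blank, that of Sec22a had no value in any cell, and those of Pdia4, Sec61a1 and Sec63 had values in P30 cells only. Pdia4 had linear ratios of 1.07 to 2.17 in 3 P30 cells, Sec61a1 of 1.51 and 2.49 in 2, and Sec63 of 1.08 to 6.03 in 4. No P6 cell had a value on them, and no difference can be given.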
